A study of Mus musculus with 4 samples.

Results

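The conjugation enzymes of mouse liver were described in 4 pooled groups of male mice. The members were all probe sets whose annotation gives a single gene of the glutathione S-transferase (GST, Gst), microsomal GST (MGST, Mgst), UDP-glucuronosyltransferase (UGT, Ugt) or sulfotransferase (SULT, Sult) families. Within these families, probe sets were taken by gene symbol and not by any measured value. The members were, however, chosen with earlier results of these data known. They were 54 of the 22626 probe sets that are not controls, and they named 41 of the 12393 genes that have a probe set of their own. The groups were fasted PPARα-null, fasted wild-type, fed PPARα-null and fed wild-type mice. PPARα-null mice (129S4/SvJae) lack the nuclear receptor PPARα in all tissues, and the wild-type mice are given as 129S1/SvImJ in the series' design and only as 129Sv in the sample labels. Genotype and any difference between substrains cannot be told apart. The mice were 12 to 20 weeks old and ate ordinary chow. The fasted pools came from mice kept without food for 24 hours, and the fed pools from mice sampled as the night phase closed. Liver RNA of 5 mice was pooled within each group and hybridized to 1 Affymetrix MOE430A array, so no difference below has a replicate check and no p-value was computed.

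Conjugation is the second phase of the removal of drugs, hormones and reactive products from the body. GSTs join glutathione to electrophiles, UGTs transfer glucuronic acid from UDP-glucuronic acid, and SULTs transfer sulfate from the donor PAPS. The products are more soluble in water and leave the hepatocyte through efflux pumps into bile or blood. Several of these genes are known to respond to the xenobiotic receptors CAR and PXR and to NRF2, a transcription factor that acts on antioxidant response elements.

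The values are intensities computed by the authors with GCRMA. They are given below as deposited, in units on a linear scale. A probe set was counted as higher or lower when 2 arrays differed by 1.5-fold or more, after values under 16 units had been raised to that floor, which lies just above the arrays' medians of 14.4 to 14.6 units. Where 1 array of a pair was at the floor, only the smallest fold the data allow is given, as at least so many fold. Intensities of different probe sets were not compared with each other, since probes differ in brightness. In bulk liver RNA, fewer cells of a type and less RNA per cell cannot be told apart.

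Hepatocyte markers were present as the label states, with all 7 listed genes that are on the array above the floor. Markers of adipocytes (0 of 3 measured) and lymphocytes (0 of 4) were at the floor on all arrays. Of 5 cholangiocyte markers, Krt7, Krt19, Epcam and Cftr were at the floor on all arrays, and Sox9 read 33.9, 20.8, 20.7 and 23.6 units in fasted PPARα-null, fasted wild-type, fed PPARα-null and fed wild-type liver, 1.63-fold higher in fasted PPARα-null than in fasted wild-type liver. Over all genes, 4.81% were higher and 7.65% lower between the fasted genotypes and 1.33% higher and 1.19% lower between the fed genotypes. Of the 9 Kupffer cell and macrophage markers, 6 were higher and 0 lower in the fasted PPARα-null than in the fasted wild-type pool, with summed intensities of 724.5 and 300.1 units, against 523.8 units in the fed PPARα-null and 473.1 units in the fed wild-type pool. Of 8 stellate cell and fibroblast markers, 4 were higher in fasted and 3 in fed PPARα-null liver than in wild-type liver of the same feeding state, and their sums were 2723.1, 1512.0, 2002.3 and 1502.9 units in fasted PPARα-null, fasted wild-type, fed PPARα-null and fed wild-type liver. Of 5 endothelial markers, 2 were higher in fasted PPARα-null than in fasted wild-type liver, with sums of 714.2 and 377.3 units. Stab2 alone gave 636.8 and 314.0 units of these, while Kdr read 16.9 and 19.4 units. Exocrine pancreas markers summed to 133.8 and 128.5 units in the fasted PPARα-null and wild-type pools, against 936.5 and 655.6 units in the fed ones. Cela1 gave 744.5 and 551.8 units of the fed sums. Sums over markers thus mostly follow the brightest probe sets. The part of these cells in the results below was not tested. Ppara itself read 16.3 units in fasted PPARα-null and 754.9 units in fasted wild-type liver, and 103.9 units in fed PPARα-null and 583.4 units in fed wild-type liver.

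Of the 54 probe sets, 36 were above the floor on all 4 arrays and 13 were below it on all of them. At the level of genes, for which the probe set with the highest mean was used, 32 of 41 were above the floor on at least 1 array. The 9 genes never above it were Mgst2, Sult1c1, Sult2a2, Sult2b1, Sult3a1, Sult4a1, Ugt2b37, Ugt2b38 and Ugt8a. Sult2b1 sulfates cholesterol, and Ugt8a makes the galactosylceramide of myelin. Another 10 genes were above the floor and, in the probe set used for the gene, passed the threshold in none of the 4 comparisons: Gstm1, Gsto1, Gstp1, Gstz1, Mgst1, Sult1c2, Ugt2a3, Ugt2b34, Ugt2b5 and Ugt3a2.

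More of these enzymes passed the threshold between fasted and fed liver than between the genotypes. Between fasted and fed wild-type liver, 8 probe sets were higher and 14 lower with fasting, which is 40.7% of the 54, against 8.14% of all probe sets (4.16% higher and 3.98% lower). Between fasted and fed PPARα-null liver, 6 were higher and 18 lower, or 44.4%, against 14.9% of all probe sets (6.21% higher and 8.7% lower). Between fasted PPARα-null and fasted wild-type liver, 8 were higher and 6 lower in the null pool, or 25.9%, against 10.9% of all probe sets (4.16% higher and 6.74% lower). Between the fed pools, 7 were higher and 1 lower in PPARα-null liver, or 14.8%, against 2.17% of all (1.17% higher and 0.994% lower). Counted by gene, 8 were higher and 4 lower in the fasted and 6 higher and 1 lower in the fed comparison of genotypes, against 4.81% and 7.65% of all genes in the fasted and 1.33% and 1.19% in the fed comparison. With fasting, 4 genes were higher and 13 lower in PPARα-null and 6 higher and 12 lower in wild-type liver, against 6.97% and 10.1% of all genes in PPARα-null and 4.6% and 4.65% in wild-type liver.

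These shares depend on brightness, because probe sets at the floor on both arrays cannot differ. Among the 33 members with a mean of 64 units or more over the 4 arrays, 30.3% passed the threshold between the fasted genotypes, close to the 27.8% of all 5306 probe sets of that brightness. The directions differed, since 21.2% of these members were higher and 9.09% lower in fasted PPARα-null liver, against 9.89% higher and 17.9% lower among all bright probe sets. The bright probe sets of the fasted PPARα-null array lay -0.10 from the common level on the log2 scale, and those of the other arrays at most 0.05 from it. After centring on them, the 54 probe sets split into 9 higher and 4 lower in place of 8 and 6. For fasting, 51.5% of the bright members passed in wild-type liver, against 23.3% of all bright probe sets (11.9% higher and 11.4% lower), and 57.6% in PPARα-null liver, against 37.8% (15.5% higher and 22.3% lower). In the fed comparison of genotypes these shares were 12.1% of members and 5.13% of all (2.22% higher and 2.9% lower).

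**Figure D1:**
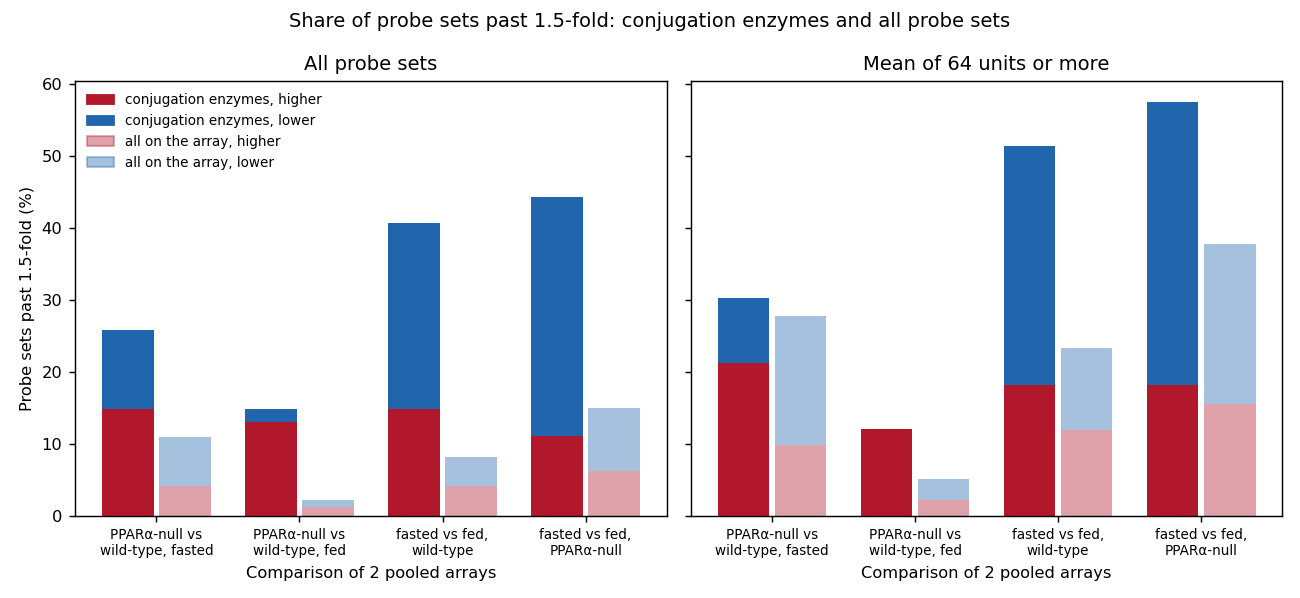
Share of probe sets (%) that were at least 1.5-fold higher (red) or lower (blue) in each comparison of 2 pooled arrays, with conjugation enzymes in full colour and all probe sets in pale colour beside them. The left panel holds all 54 members and 22626 probe sets, and in the right panel, limited to a mean of 64 units or more, the fasted comparison of genotypes has nearly equal totals of 30.3% and 27.8%.

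The alpha-class GSTs were lower with fasting in both genotypes. Gsta4, whose enzyme is known to conjugate the lipid peroxidation product 4-hydroxynonenal, read 148.0 units in fasted and 357.1 units in fed PPARα-null liver, against 139.5 units in fasted and 394.4 units in fed wild-type liver. It was 2.41-fold lower with fasting in PPARα-null liver and 2.83-fold lower in wild-type liver. Gsta3 read 8910.6 units in fasted and 15586.3 units in the fed PPARα-null pool, and 8426.0 units in fasted and 14980.6 units in fed wild-type liver. The fasted pools of both genotypes were below both fed pools for these genes, and the genotypes differed by at most 1.10-fold at a given feeding state. A dimmer probe set of Gsta3 differed more between fasted and fed liver, by 3.14-fold in PPARα-null and 2.32-fold in wild-type liver, and was 1.52-fold lower in fasted PPARα-null than in fasted wild-type liver. Gsta2, an isoform known to be inducible by xenobiotics, read 2902.1 units in fasted and 6214.0 units in fed PPARα-null liver, against 2620.7 and 4226.7 units in fasted and fed wild-type liver. Its difference between the fed pools was 1.47-fold and so stayed below the threshold.

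The mu-class GSTs form 1 uninterrupted row of 7 genes on chromosome 3 of the mouse reference (GRCm38.p6), in the order Gstm5, Gstm7, Gstm6, Gstm3, Gstm2, Gstm1 and Gstm4. With fasting, 5 of the 7 genes were lower and 0 higher in PPARα-null liver, with a median log2 difference of -1.40, and 6 were lower and 0 higher in wild-type liver, with a median of -1.20. Over all genes the median was 0 in both comparisons, and 10.1% of genes were lower with fasting in PPARα-null and 4.65% in wild-type liver. Gstm6 read 52.9 units in fasted and 236.8 units in fed PPARα-null liver, a 4.48-fold difference, and 30.5 and 138.3 units in fasted and fed wild-type liver, a 4.54-fold difference. Gstm7 read 77.7 and 213.3 units in fasted and fed PPARα-null liver, and 70.2 and 174.5 units in fasted and fed wild-type liver. Gstm5 read 159.2 and 316.4 units in fasted and fed PPARα-null liver, and 109.1 and 230.2 units in fasted and fed wild-type liver. All 3 genes therefore had both fasted pools below both fed pools, and each read higher in the PPARα-null pool at both feeding states. Gstm4 was 3.19-fold lower with fasting in PPARα-null and 2.30-fold lower in wild-type liver, at readings of at most 109.9 units.

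Gstm2 was higher in PPARα-null liver at both feeding states. It read 1854.2 units in fasted PPARα-null and 351.4 units in fasted wild-type liver, and 1731.1 units in fed PPARα-null and 744.1 units in fed wild-type liver. Both null pools were above both wild-type pools. In wild-type liver it was 2.12-fold lower with fasting, while the fasted and fed PPARα-null pools differed by 1.07-fold. The fasting response in null minus that in wild-type liver was 1.18 on the log2 scale for Gstm2, against 0.02 for Gstm6, 0.09 for Gstm5 and -0.14 for Gstm7. This difference of responses has no test. Gstm3 had a difference of responses of at least 1.02, since 1 array was under the floor, with 59.2 units in fasted PPARα-null and 10.9 units in fasted wild-type liver, and 156.2 and 85.6 units in the fed PPARα-null and fed wild-type pools. It was at least 3.70-fold higher in fasted PPARα-null than in fasted wild-type liver, on a probe set whose suffix marks matches to several transcripts. The other probe set of Gstm3 was at the floor on both fasted arrays. Gstm4 ran in the other direction between genotypes, and was 2.06-fold lower in fasted PPARα-null than in fasted wild-type liver.

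Gstm1 has 4 probe sets, and between fasted PPARα-null and fasted wild-type liver their log2 differences were between -0.54 and 0.37. With fasting in PPARα-null liver, 2 of the 4 passed the threshold, at 1.62-fold and 1.53-fold lower. Its brightest probe set read 4876.4, 3767.9, 5407.8 and 5247.9 units in fasted PPARα-null, fasted wild-type, fed PPARα-null and fed wild-type liver. That probe set carries the suffix for probes shared with similar genes, and mu-class transcripts are similar in sequence, so signals of single members can include their neighbours and are uncertain for that reason.

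The promoters of Gstm5, Gstm7 and Gsta3 are shown because these 3 genes were lower with fasting in both genotypes and hold a match to the core of the antioxidant response element. The motif searched was TGACNNNGC on both strands in the 250 bases before the start of each RefSeq gene (GRCm38.p6), at 46 promoters of 36 member genes. It was found at 8.70% of member promoters and at 10.2% of all 32851 promoters in the table, so members held it about as often as any promoter. The fourth gene with a match was Mgst1, which encodes a microsomal GST and passed the threshold in no comparison. A match in these letters is not a binding site. The direct repeats of the nuclear receptor half-site with 1 and 4 bases between, AGGTCANAGGTCA and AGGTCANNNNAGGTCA, were found in 0 member promoters, and in 0.0335% and 0.0152% of all promoters. Capitals mark the match. The windows are chr1:21240335-21240584 on the plus strand for Gsta3, chr3:107895604-107895853 on the plus strand for Gstm5 and chr3:107931615-107931864 on the minus strand for Gstm7. Gstm7 has a further start, whose window of chr3:107931818-107932067 holds no match. That further start lies inside the window shown, and the match lies downstream of it.
Gsta3: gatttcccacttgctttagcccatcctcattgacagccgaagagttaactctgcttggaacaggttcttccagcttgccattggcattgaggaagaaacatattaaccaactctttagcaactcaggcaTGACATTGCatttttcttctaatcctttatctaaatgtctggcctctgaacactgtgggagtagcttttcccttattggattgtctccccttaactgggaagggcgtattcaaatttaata
Gstm5: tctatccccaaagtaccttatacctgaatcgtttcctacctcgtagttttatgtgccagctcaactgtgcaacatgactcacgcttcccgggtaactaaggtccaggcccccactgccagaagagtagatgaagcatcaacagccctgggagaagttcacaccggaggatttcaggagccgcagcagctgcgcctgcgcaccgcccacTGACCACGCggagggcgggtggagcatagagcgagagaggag
Gstm7: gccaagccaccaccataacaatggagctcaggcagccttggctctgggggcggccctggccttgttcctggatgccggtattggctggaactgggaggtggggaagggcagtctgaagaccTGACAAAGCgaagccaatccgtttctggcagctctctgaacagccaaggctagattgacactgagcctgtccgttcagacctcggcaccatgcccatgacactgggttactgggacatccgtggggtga

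Theta-class GSTs, which act on small halogenated compounds among others, went different ways although Gstt3, Gstt1 and Gstt2 lie within 4 neighbouring protein-coding genes on chromosome 10. Gstt2 read 369.7 units in fasted PPARα-null and 2429.2 units in fasted wild-type liver, and 588.1 and 576.3 units in the fed PPARα-null and fed wild-type pools. The fasted wild-type pool alone stood apart. Gstt2 was thus 4.21-fold higher with fasting in wild-type liver, 1.59-fold lower with fasting in PPARα-null liver and 6.57-fold lower in fasted PPARα-null than in fasted wild-type liver, while the fed pools differed by 1.02-fold. The decrease with fasting in PPARα-null liver fell short of the threshold when the arrays were centred on bright probe sets, at -0.54 on the log2 scale. Gstt3 read 297.7 and 177.7 units in fasted PPARα-null and fasted wild-type liver, and 107.8 and 100.6 units in fed PPARα-null and fed wild-type liver. It was higher with fasting in both genotypes and 1.68-fold higher in fasted PPARα-null than in fasted wild-type liver. Gstt1 read 545.3, 641.5, 950.2 and 806.1 units in fasted PPARα-null, fasted wild-type, fed PPARα-null and fed wild-type liver, and passed the threshold only for fasting in PPARα-null liver, where it was 1.74-fold lower.

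Of the remaining soluble classes, Gstk1, Gstp3 and the dimmer probe set of Gsto1 passed the threshold. Gstk1, the kappa-class gene whose enzyme lies in mitochondria and peroxisomes, read 1168.0 units in fasted PPARα-null liver and between 1860.2 and 1936.3 units in the other pools. It was 1.66-fold lower in fasted PPARα-null than in the fasted wild-type pool and 1.59-fold lower than in fed PPARα-null liver. With centring these log2 differences of -0.73 and -0.67 became -0.58 and -0.54, short of the threshold. Gstz1, whose enzyme maleylacetoacetate isomerase takes part in tyrosine breakdown, read 2526.2, 3277.4, 3656.3 and 3349.9 units in fasted PPARα-null, fasted wild-type, fed PPARα-null and fed wild-type liver, with the lowest value again in fasted PPARα-null liver and no difference past the threshold. Gstp1, the pi-class gene, lay between 10137.0 and 11860.4 units, and Gsto1 of the omega class between 1732.6 and 2155.2 units in its brighter probe set. The dimmer Gsto1 probe set read 101.0 and 62.5 units in fasted and fed PPARα-null liver, 1.62-fold higher with fasting, and 105.6 and 76.9 units in fasted and fed wild-type liver. Gstp3, another pi-class gene, read 89.6, 35.9, 106.0 and 78.7 units in fasted PPARα-null, fasted wild-type, fed PPARα-null and fed wild-type liver. It was 2.49-fold higher in fasted PPARα-null than in fasted wild-type liver, with the single low value in the fasted wild-type pool.

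The microsomal GSTs form a separate protein family that also conjugates glutathione. Mgst1 lay between 8042.8 and 9618.0 units and passed no threshold. Mgst3, whose enzyme is known for its part in leukotriene C4 formation, read 25.0, 18.5, 63.3 and 34.6 units in fasted PPARα-null, fasted wild-type, fed PPARα-null and fed wild-type liver. It was 2.53-fold lower with fasting in PPARα-null and 1.87-fold lower in wild-type liver, on values near the floor. Between the fed pools it was 1.83-fold higher in PPARα-null liver. With averaged probe sets the log2 differences were 0.435 between the fed genotypes and -0.451 for fasting in wild-type liver, both short of the threshold.

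**Figure D2:**
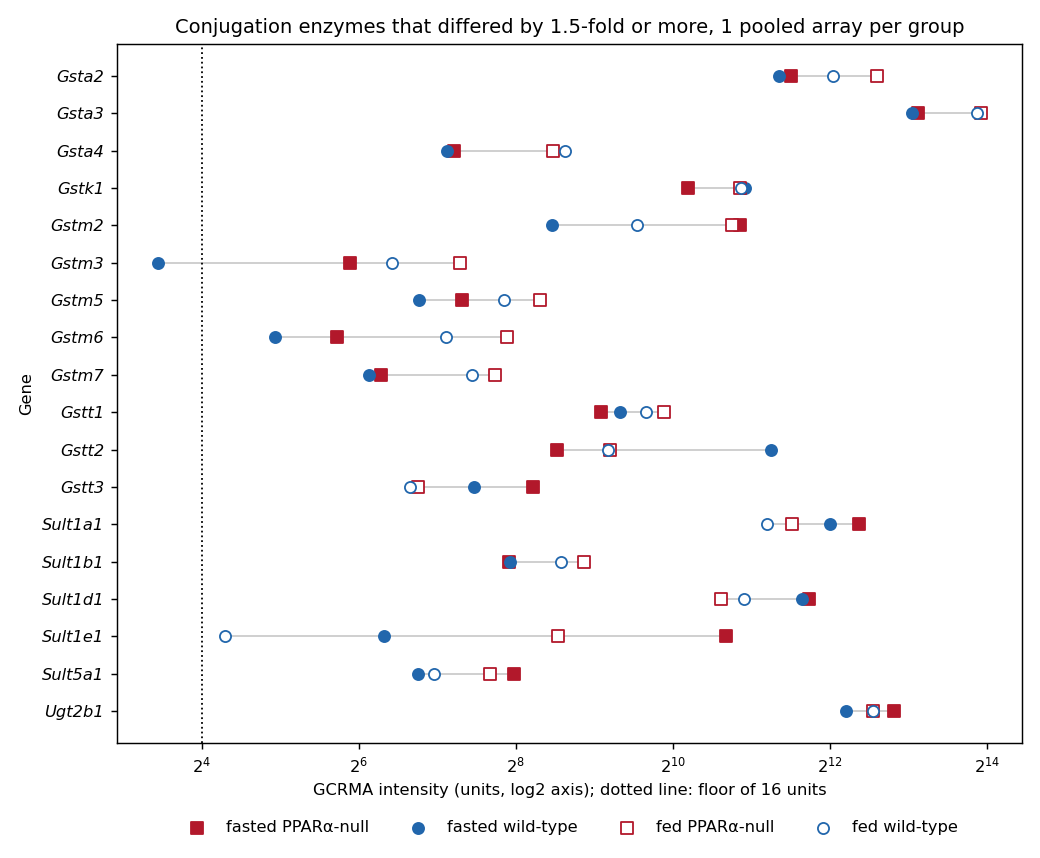
GCRMA intensity (log2 axis, units) of the 18 conjugation enzyme genes with a log2 intensity of at least 7 on the brightest array and a difference of 1.5-fold or more, with 1 point per pooled array (squares for PPARα-null, circles for wild-type, filled for fasted, open for fed). Gstt2 has 1 array apart from the other 3, at 2429.2 units in fasted wild-type liver, and Sult1e1 has the fasted and fed PPARα-null pools at 1635.8 and 371.4 units, right of both wild-type pools.

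Of 6 genes of the first sulfotransferase family, 3 were higher and 1 lower with fasting in each genotype, against 6.97% and 10.1% of all genes in PPARα-null and 4.6% and 4.65% in wild-type liver. Sult1e1, the estrogen sulfotransferase, read 1635.8 units in fasted PPARα-null and 79.6 units in fasted wild-type liver, and 371.4 units in fed PPARα-null and 19.6 units in fed wild-type liver. Both null pools were above both wild-type pools, and within each genotype the fasted pool was above the fed one. The fold between genotypes was 20.5 in fasted and 18.9 in fed liver, and the fold between fasted and fed pools was 4.40 in PPARα-null and 4.06 in wild-type liver. The fasting responses of the genotypes differed by 0.12 on the log2 scale. Folds that use the fed wild-type value are uncertain, since it lay only a little above 16 units. With a floor of 64 units the fasting difference in wild-type liver was 0.32 on the log2 scale, short of the threshold.

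Sult1a1 and Sult1d1, which in the mouse act on phenols and on catecholamines and related amines, were higher with fasting in both genotypes. Sult1a1 read 5294.5 and 2918.8 units in fasted and fed PPARα-null liver, and 4082.6 and 2350.8 units in fasted and fed wild-type liver. Sult1d1 read 3392.8 and 1572.0 units in fasted and fed PPARα-null liver, and 3193.9 and 1927.1 units in fasted and fed wild-type liver. Both fasted pools were above both fed pools for each gene. The second probe set of Sult1d1 gave 2.17-fold in PPARα-null and 2.09-fold in wild-type liver. Sult1b1, known for the sulfation of phenols and thyroid hormones, went the other way, at 241.6 and 467.1 units in fasted and fed PPARα-null liver and 243.8 and 381.3 units in fasted and fed wild-type liver. Sult1b1, Sult1d1 and Sult1e1 are neighbours on chromosome 5, so genes beside each other had opposite directions with fasting. Sult1c2 read between 12.7 and 23.3 units and was below the floor in both fasted pools. Sult5a1 differed by genotype, not by feeding, at 251.1 and 108.3 units in fasted PPARα-null and fasted wild-type liver and 203.1 and 124.5 units in fed PPARα-null and fed wild-type liver, or 2.32-fold and 1.63-fold higher in the null pools.

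The promoters of Sult1e1 and Gstm2 are shown because these 2 genes had the largest folds among the members higher in fasted PPARα-null than in fasted wild-type liver with both arrays above the floor. The windows of 250 bases before the gene start are chr5:87591612-87591861 for Sult1e1 and chr3:107986421-107986670 for Gstm2 (GRCm38.p6, both on the minus strand). None of the 3 motifs searched was found in them, and they hold no capitals.
Sult1e1: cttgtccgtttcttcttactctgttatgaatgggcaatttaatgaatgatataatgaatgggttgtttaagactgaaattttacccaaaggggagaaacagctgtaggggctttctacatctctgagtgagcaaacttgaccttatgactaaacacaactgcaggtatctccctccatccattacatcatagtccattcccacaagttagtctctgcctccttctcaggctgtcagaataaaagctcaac
Gstm2: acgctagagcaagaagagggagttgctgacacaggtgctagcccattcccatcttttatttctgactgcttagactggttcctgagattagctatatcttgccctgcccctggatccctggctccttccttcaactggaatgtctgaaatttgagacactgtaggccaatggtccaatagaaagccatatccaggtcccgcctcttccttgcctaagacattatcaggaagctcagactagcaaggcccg

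**Figure D3:**
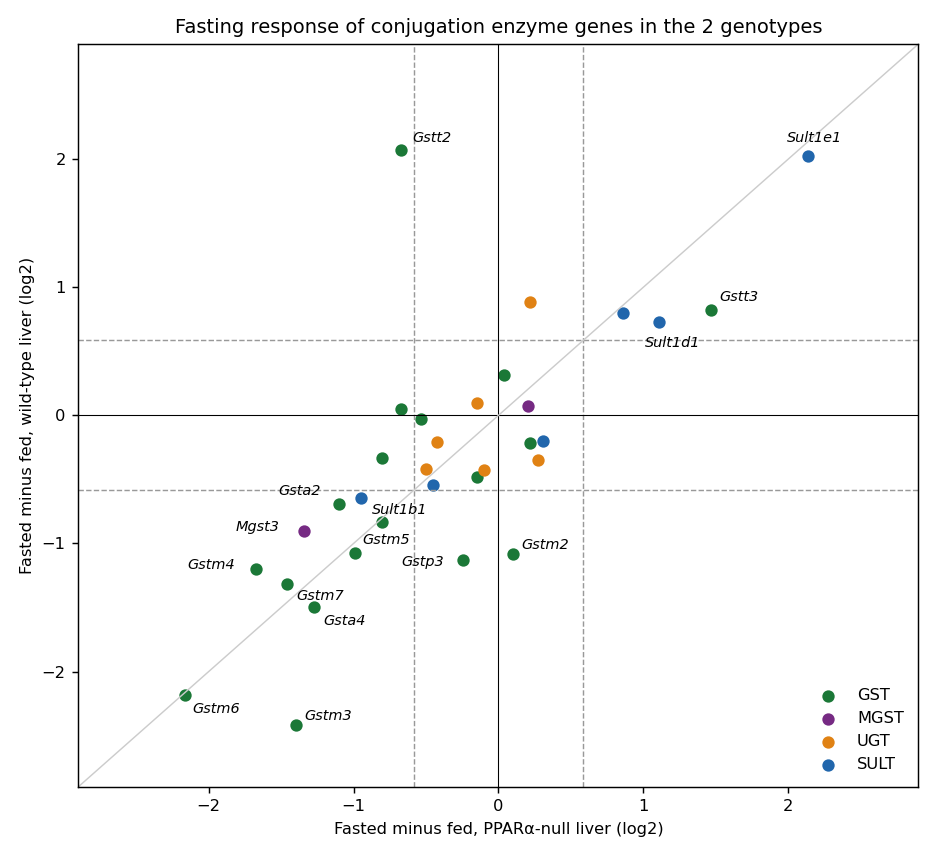
Log2 difference between fasted and fed liver of the 32 measured genes in PPARα-null (horizontal) and wild-type mice (vertical), coloured by family, with dashed lines at 1.5-fold and a grey line of equal response. Most GST genes lie at the lower left, Sult1e1 (2.14 and 2.02) at the upper right, and Gstt2 (-0.67 and 2.08) away from the line.

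The fasting responses of the genotypes, which share no array, mostly had the same sign. Both were below 0 for 18 of the 32 measured genes and above 0 for 7. Over these genes Pearson's r was 0.75 and Spearman's rho 0.74, given as a description, since genes are not independent and similar transcripts share probes. Of the 14 probe sets lower with fasting in wild-type liver, 85.7% were also lower in PPARα-null liver, and these 12 made up 66.7% of the 18 that were lower in PPARα-null liver. Such double decreases were 22.2% of members and 2.81% of all probe sets, and among bright probe sets 27.3% and 8.35%. The genes behind them were Gsta2, Gsta3, Gsta4, Gstm3, Gstm4, Gstm5, Gstm6, Gstm7, Mgst3, Sult1b1 and, in 1 of its probe sets, Ugt2b34. Higher with fasting in both genotypes were Gstt3, Sult1a1, Sult1d1 and Sult1e1, or 9.26% of member probe sets against 2.14% of all. Higher in PPARα-null liver at both feeding states were Gstm2, Gstm3, Gstm6, Sult1e1 and Sult5a1, or 9.26% of member probe sets against 0.398% of all. Ugt3a1 alone was lower at both, in 1 of its probe sets, against 0.522% of all.

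Of 9 UGT genes, 1 was higher and 1 lower in the null pool when the fasted genotypes were compared, against 4.81% and 7.65% of all genes, and 0 passed the threshold for fasting in PPARα-null liver, against 6.97% higher and 10.1% lower of all genes. Ugt2b1 read 7221.5 and 4719.6 units in fasted PPARα-null and fasted wild-type liver, a 1.53-fold difference, and 5974.5 and 5993.9 units in fed PPARα-null and fed wild-type liver. It fell short of the threshold after quantile normalization of the 4 arrays, at 0.57 on the log2 scale. Ugt2b5 lay between 5655.4 and 7588.8 units and Ugt2a3 between 1944.2 and 2602.6 units. Ugt2b34 was 1.71-fold lower with fasting in PPARα-null and 1.85-fold lower in wild-type liver in the probe set without a suffix, while the brighter one had folds of 1.41 in PPARα-null and 1.34 in wild-type liver, short of the threshold. In these genes the fasted pools read lower than the fed pools in wild-type liver without passing the threshold, apart from the suffix-free Ugt2b34 probe set.

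The third UGT family uses other sugars than glucuronic acid, as shown for the human enzymes. Ugt3a1 read 18.6 and 48.2 units in fasted PPARα-null and fasted wild-type liver, and 15.3 and 26.1 units in fed PPARα-null and fed wild-type liver. It was 2.58-fold lower in fasted PPARα-null than in the fasted wild-type pool and 1.84-fold higher with fasting in wild-type liver. A second probe set gave at least 2.07-fold and 1.56-fold for the same comparisons. Between the fed genotypes Ugt3a1 was at least 1.63-fold lower in PPARα-null liver. The second probe set gave at least 1.32-fold there, and averaged probe sets a log2 difference of -0.556, both short of the threshold. All values of Ugt3a1 were near the floor. Ugt3a2, beside it on chromosome 15, lay between 2770.8 and 3224.4 units, with no difference past the threshold.

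Similar sequences within the second UGT family are visible in the promoters. Ugt2b34, Ugt2b1, Ugt2b5, Ugt2b37, Ugt2a3 and Ugt2b38 lie in 1 stretch of chromosome 5 that also holds Sult1b1, Sult1d1 and Sult1e1. In global alignments of the 250 bases before the start, Ugt2b37 and Ugt2b38 shared 85.2% of positions, Ugt2b5 and Ugt2b38 81.5%, and Ugt2b5 and Ugt2b37 73.0%. Promoters of genes from different subfamilies shared between 38.9% and 54.5%, with a median of 48.2% over 578 pairs, and the mu-class GST promoters between 43.5% and 57.9%. The 3 Ugt2b promoters are shown because they are alike while their probe sets differ in state: Ugt2b5 was above the floor on all arrays and Ugt2b37 and Ugt2b38 were below it on all. Capitals mark bases that do not match Ugt2b5 in the alignment, 50 in Ugt2b37 and 38 in Ugt2b38. They include bases set against a gap, and bases that only Ugt2b5 has are not marked. The shared percentages above also count gaps as positions, so both measures include shifts between the windows. The windows are chr5:87140341-87140590 for Ugt2b5, chr5:87254789-87255038 for Ugt2b37 and chr5:87424204-87424453 for Ugt2b38, all on the minus strand of GRCm38.p6.
Ugt2b5: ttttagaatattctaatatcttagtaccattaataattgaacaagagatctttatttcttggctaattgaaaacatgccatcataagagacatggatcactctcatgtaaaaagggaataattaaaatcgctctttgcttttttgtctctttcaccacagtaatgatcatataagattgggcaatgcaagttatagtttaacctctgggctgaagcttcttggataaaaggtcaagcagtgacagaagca
Ugt2b37: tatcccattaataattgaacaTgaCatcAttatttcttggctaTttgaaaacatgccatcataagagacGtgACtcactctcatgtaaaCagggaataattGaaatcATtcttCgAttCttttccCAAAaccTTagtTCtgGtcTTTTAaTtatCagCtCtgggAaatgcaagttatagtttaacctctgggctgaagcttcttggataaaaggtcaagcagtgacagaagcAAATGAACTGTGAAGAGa
Ugt2b38: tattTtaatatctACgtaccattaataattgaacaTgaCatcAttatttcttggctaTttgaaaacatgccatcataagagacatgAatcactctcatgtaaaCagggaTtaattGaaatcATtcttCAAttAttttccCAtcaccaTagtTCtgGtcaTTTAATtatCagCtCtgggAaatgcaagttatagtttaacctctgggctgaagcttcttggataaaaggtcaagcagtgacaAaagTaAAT

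**Figure D4:**
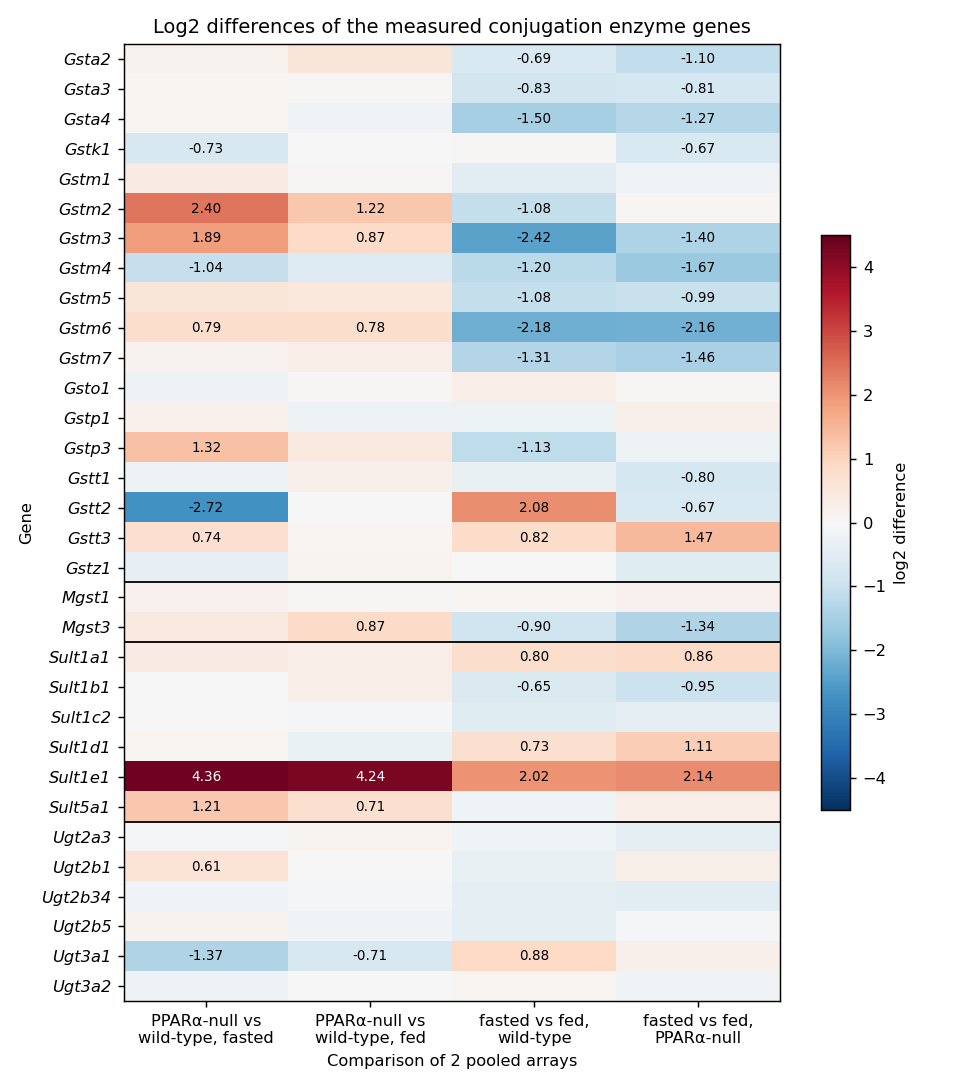
Log2 differences of the 32 measured genes (rows, by family) in the 4 comparisons of pooled arrays (columns), with numbers where the size is 1.5-fold or more. The mu-class rows are mostly blue in both fasting columns, Gstm2 and Sult1e1 are red in both genotype columns, and the UGT rows are pale except Ugt3a1 (-1.37 in the fasted comparison of genotypes).

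Supply of the conjugating groups was examined with lists of related genes. For glutathione synthesis and recycling, 2 of 13 genes were higher and 3 lower in fasted PPARα-null than in fasted wild-type liver, against 4.81% and 7.65% of all genes. Gclc, the catalytic subunit of the rate-limiting enzyme of glutathione synthesis, read 965.7 and 1547.5 units in fasted PPARα-null and fasted wild-type liver, and 3863.4 and 4155.5 units in fed PPARα-null and fed wild-type liver. Both fasted pools were below both fed pools, as for the alpha GSTs. Its difference of -0.68 between the fasted genotypes was -0.53 with centring and -0.47 with averaged probe sets. Gclm, the gene of the other subunit of that enzyme, went the other way between the fasted genotypes. It read 1506.0 and 961.5 units in fasted PPARα-null and fasted wild-type liver, 1.57-fold higher, and 1219.2 and 1471.2 units in fed PPARα-null and fed wild-type liver. Chac1 was the other higher gene, by at least 1.52-fold, at 24.3 units in fasted PPARα-null liver. Chac2, which breaks down glutathione, was at the floor in fasted PPARα-null liver and read 329.8 units in fasted wild-type liver, or at least 20.6-fold lower, against 622.2 and 665.9 units in the fed PPARα-null and fed wild-type pools. Oplah, the 5-oxoprolinase that recycles glutamate from glutathione, was higher with fasting in both genotypes, by 2.23-fold in PPARα-null and 3.89-fold in wild-type liver. Glrx, a glutathione-dependent oxidoreductase gene, was 2.28-fold higher with fasting in wild-type liver.

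For UDP-glucuronic acid, Ugdh, which makes it from UDP-glucose, was 1.63-fold lower with fasting in PPARα-null and 1.78-fold lower in wild-type liver. Ugp2 and Slc35b1, a UDP-glucose pyrophosphorylase gene and a nucleotide transporter gene, were 1.72-fold and 2.66-fold lower with fasting in wild-type liver. Without suffixed probe sets the log2 difference of Ugp2 was -0.584, just short of the threshold. Pgm1 and Gusb were 1.54-fold and 1.51-fold higher in that comparison. Thus 2 of 7 genes were higher and 3 lower with fasting in wild-type liver, against 4.6% and 4.65% of all genes. In PPARα-null liver 0 were higher and 2 lower, against 6.97% and 10.1%. The median log2 difference of the 7 genes with fasting was -0.21 in PPARα-null and -0.16 in wild-type liver. Pgm1 was 2.01-fold lower in fasted PPARα-null than in fasted wild-type liver. For sulfation, Papss2, which makes PAPS, was 1.55-fold higher with fasting in PPARα-null and 1.67-fold higher in wild-type liver, but both fell short of the threshold with averaged probe sets. Papss1, the other PAPS synthase gene, went the other way. It read 33.1 and 28.1 units in fed PPARα-null and fed wild-type liver and was below the floor in both fasted pools. With fasting it was at least 2.07-fold lower in PPARα-null and at least 1.75-fold lower in wild-type liver. Bpnt1, which removes the spent donor, was 2.23-fold lower with fasting in PPARα-null liver, at 137.2 and 305.7 units in the fasted and fed pools. Of 8 transporters of conjugates, 5 were above the floor on at least 1 array. Abcc3 was 1.63-fold higher in fed PPARα-null than in fed wild-type liver, and 2.14-fold higher with fasting in wild-type liver. Abcc6 was 1.80-fold lower with fasting in wild-type liver.

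Regulators of these enzymes differed as well. Nfe2l2, the gene of NRF2, read 45.0 and 447.9 units in fasted PPARα-null and fasted wild-type liver, and 751.0 and 801.1 units in fed PPARα-null and fed wild-type liver. The fasted PPARα-null value stood apart from the other 3. Nr1i3, the gene of CAR, was higher with fasting in both genotypes, at 1818.7 and 1129.5 units in fasted and fed PPARα-null liver and 2479.4 and 823.5 units in fasted and fed wild-type liver. Nr1i2, the gene of PXR, read at most 26.5 units. Nr1h4, the bile acid receptor gene, was 6.65-fold lower in fasted PPARα-null than in fasted wild-type liver. Ahr, the aryl hydrocarbon receptor gene, read 1091.6 and 780.9 units in fasted PPARα-null and fasted wild-type liver, a fold of 1.40. In fed PPARα-null and fed wild-type liver it read 977.0 and 1043.2 units. Of 8 genes known to follow these regulators, 4 were higher and 0 lower in fasted PPARα-null than in fasted wild-type liver, against 4.81% and 7.65% of all genes. Cyp2b10 read 5574.1 units in fasted PPARα-null and 125.0 units in fasted wild-type liver, and Cyp1a2 was 1.82-fold higher in fasted PPARα-null than in fasted wild-type liver. Srxn1, a sulfiredoxin gene known to follow NRF2, was 1.58-fold higher in the same comparison, but had a log2 difference of 0.30 with averaged probe sets. Hmox1 was 1.96-fold higher, Cyp3a11 had a fold of 1.34 and Txnrd1 of 1.01. Nqo1 read at most 16.5 units, so its fold of 1.02 is set by the floor, and Cyp1a1 was at the floor.

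Other enzymes outside the 4 families went both ways. Their list also holds the epoxide hydrolase genes Ephx1 and Ephx2, which do not encode conjugating enzymes. In fasted PPARα-null against fasted wild-type liver, 2 of 11 were higher and 5 lower, against 4.81% and 7.65% of all genes. Ephx2, 1.92-fold lower, was among these 5. Nnmt, the nicotinamide N-methyltransferase gene, read 3908.8 and 567.6 units in fasted PPARα-null and fasted wild-type liver, and 240.8 and 55.0 units in fed PPARα-null and fed wild-type liver. As for Sult1e1, the fasted PPARα-null pool was highest and the fed wild-type pool lowest. Nat8 was 2.54-fold higher in fasted and 5.32-fold higher in fed PPARα-null than in wild-type liver of the same feeding state. The methyltransferase genes Inmt and Hnmt were 2.50-fold and 2.28-fold lower in fasted PPARα-null than in fasted wild-type liver. Some of these enzymes are known to differ between the sexes in mouse liver. Of the 5 male-biased genes on the array, 2 were lower with fasting in PPARα-null and 3 in wild-type liver, against 10.1% and 4.65% of all genes, among them Hsd3b5 (10.9-fold and 16.8-fold) and Elovl3 (6.01-fold and 4.63-fold). Cyp7b1 was 1.66-fold higher in fasted PPARα-null than in the fasted wild-type pool. Without suffixed probe sets its log2 difference was 0.48, short of the threshold. The 1 measured female-biased gene was Cyp17a1, which was higher with fasting by 24.6-fold in PPARα-null and 37.7-fold in wild-type liver.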

How the data were processed

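Liver RNA pooled within 4 groups was profiled on Affymetrix MOE430A arrays. The authors computed the deposited intensities with GCRMA (2.20, as the submitters' processing notes state), which corrects background by probe sequence, normalizes quantiles and summarizes probe sets. The sources used here do not state which arrays were normalized jointly. The sources differ on whether each pool held 5 mice. Values were converted to log2, with a floor of 4 (16 units). The fold part (1.5) of the study's criterion was applied. Its false discovery rate part needs replicates, so no test was run. The number of arrays limits the precision. Probe sets were named from the platform annotation, and all 54 members matched the RefSeq gene table with 0 changed symbols. The 5 probe sets that list several genes were left out, so Gsta1 and the Ugt1a locus are not described. Full values were given for 18 genes with a log2 intensity of 7 or more on the brightest array and a 1.5-fold difference, and up to 4 genes of each list. Protein identity was not analysed here. Members and lists were chosen with earlier results of these data known. The threshold was tested on simulated data. Alternatives covered the threshold, floor, brightness filter, scaling, lowess (fraction 0.3), probe set suffix and gene summary. Python 3.11.15, numpy 2.4.6, pandas 2.3.3, statsmodels 0.14.6 and matplotlib 3.10.9 were used. Promoters came from RefSeq (GRCm38.p6).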

Additional observations from a re-analysis of the deposited data

Results flagged for a closer look

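Gstt2 had opposite differences with fasting in the genotypes, with log2 differences of -0.67 in PPARα-null and 2.08 in wild-type liver. Each rests on 1 pooled array per group, and the difference between genotypes was not tested. Gstt2 has 1 probe set, which has no ambiguous suffix. The decrease in PPARα-null liver was short of 1.5-fold with centring on bright probe sets.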

How the results depend on the processing

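Of the values of the 18 genes with full values under the alternative settings, 478 kept their side of the threshold, 10 fell short of it and 4 newly passed it. Of the values of the named list genes, 748 kept their side, 22 fell short and 2 newly passed. Including the other members, 0 values that passed the threshold as reported changed sign, and 19 that had not passed it did, with sizes of at most 0.30 on the log2 scale. The number of member probe sets past the threshold moved by more than 1.5 times as follows. With a 2-fold threshold, 9 passed between the fasted genotypes in place of 14, 2 between the fed genotypes in place of 8, 12 for fasting in PPARα-null liver in place of 24 and 12 for fasting in wild-type liver in place of 22. With a floor of 64 units, 8 passed between the fasted and 5 between the fed genotypes. Between the fed genotypes 4 passed among bright members, 5 without suffixed probe sets and 5 genes with averaged probe sets. The remaining counts stayed within 1.5 times. Gsta2, Gstm6 and Sult1a1 have suffixed probe sets only and gave no value without them. The difference of Gstm3 between the fasted genotypes was 0 with a floor of 64 units and without suffixed probe sets, and that of Gstm6 was 0 with a floor of 64 units. Fewer probe sets are above the floor in these settings. Gstm5 passed the threshold in the fasted comparison of genotypes with quantile normalization (0.63), centring (0.70) and lowess (0.61). The cause was not tested. No paired analysis was possible because each group has 1 array and the labels give no replicate numbers.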
